A study of Homo sapiens with 10 samples.

Results

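The 3 shARVCF lines of a U2OS knockdown experiment were compared with each other. U2OS is an established human osteosarcoma line that carries functional p53. Each line had been infected with a lentivirus that expresses a different short hairpin RNA (shRNA) against ARVCF, was selected with puromycin at 1 µg/ml and, per the labels, was a single clone. A further line carried a negative control shRNA and went through the same selection. Every line was sequenced without treatment and after 10 µM nutlin-3a for 24 h. The comparison took the 6 shARVCF libraries of the 10 libraries in the series, that is lines 1, 2 and 3 with 1 untreated and 1 nutlin-3a library each. The control line (1 untreated library and 3 with nutlin-3a) is given beside the results and enters no test. Because each shRNA was seen in 1 clone, the hairpin, the clone and the place where the virus integrated cannot be told apart. A gene was tested when its value reached 10 in 2 or more of the 6 libraries, which 14888 genes did. Close to this limit, CCDC170 was inside it with a second highest value of 10.04, and KIAA1257 was outside it at 9.93.

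ARVCF is a catenin of the p120 family, proteins with armadillo repeats that bind the cytoplasmic tail of classical cadherins and steady them at cell contacts. Nutlin-3a blocks the binding of MDM2 to p53, so that p53 accumulates and its target genes are transcribed. Knockdown lines made with different hairpins against the same transcript share the target and can differ in off-target pairing of the hairpin, in the integration site and in the traits of the cell that founded the clone.

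ARVCF itself (chr22:19969896-20016808 on GRCh38) stood at 292 and 1284 in line 1, 343 and 1188 in line 2 and 338 and 1232 in line 3, values untreated and with nutlin-3a in that order, in scaled fragments. The control line had 618 untreated and 2376, 2571 and 2928 with nutlin-3a. All 3 lines were below the control in the same treatment, and the lines did not differ from each other beyond their spread (F-test over the lines, adjusted p = 0.848). The pairwise log2 differences were 0.06 for line 2 minus line 1, 0.08 for line 3 minus line 1 and 0.02 for line 3 minus line 2, each with an SE of 0.10. Scaled totals of the 6 libraries ran from 17821751 to 18431324. Markers of the mesenchymal and osteoblast lineage summed to between 122474 and 152619, with VIM, COL1A1 and SPARC far above the other members and making up nearly all of the sum. The osteoblast markers BGLAP and SP7, 2 of the 9, were under 10 in all 6 libraries, and COL1A2 ran only from 1.83 to 14.8. Blood markers summed to between 1.90 and 14.4, and 4 of those 5 were under 10 throughout. Epithelial markers summed to between 126 and 617, neural markers to between 241 and 802 and endothelial markers to between 46.6 and 107. No member of these last classes was under 10 in all 6 libraries.

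Most of the variation among the 6 libraries followed the treatment, and a smaller portion lay between the lines. Over the tested genes, treatment held 72.3% of the sum of squares of the log2 values, line 17.9% and the remainder 9.83%. Line and remainder have 2 degrees of freedom each, so the line share also holds spread of the kind seen in the remainder. Differences between lines were partly the same with and without nutlin-3a: over 12390 genes with a mean of at least 50, the deviation of a line from the mean of the other 2 had a Spearman correlation between treatments of 0.43 in line 1, 0.53 in line 2 and 0.52 in line 3. These are descriptions across genes, which share libraries and are not independent. Any difference among the lines was called for 1874 genes (12.6% of those tested, adjusted p below 0.05 in an F-test with limma).

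A gene was taken to set a line apart when the line differed from the mean of the other 2 at an adjusted p below 0.05 and lay beyond both of them, on the same side, in both treatments. The p-value tests the difference from that mean and not the gap to the nearest line, which can be small. Line 3 had the most such genes, 677 higher (4.55% of those tested) and 809 lower (5.43%). Line 1 was set apart by 381 higher (2.56%) and 609 lower genes (4.09%), and line 2 by 334 higher (2.24%) and 180 lower genes (1.21%). Most differences were modest, with a median size of 0.46 (log2) in lines 1 and 2 and 0.42 in line 3. A gap of at least 2-fold to the nearest other line in both treatments was left by 10 higher and 51 lower genes in line 1, by 15 and 7 in line 2 and by 23 and 33 in line 3. The contrasts share libraries: 437 genes set apart both line 1 and line 3, 213 both line 2 and line 3 and 155 both line 1 and line 2, always in opposite directions, as the contrasts are built.

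**Figure D1:**
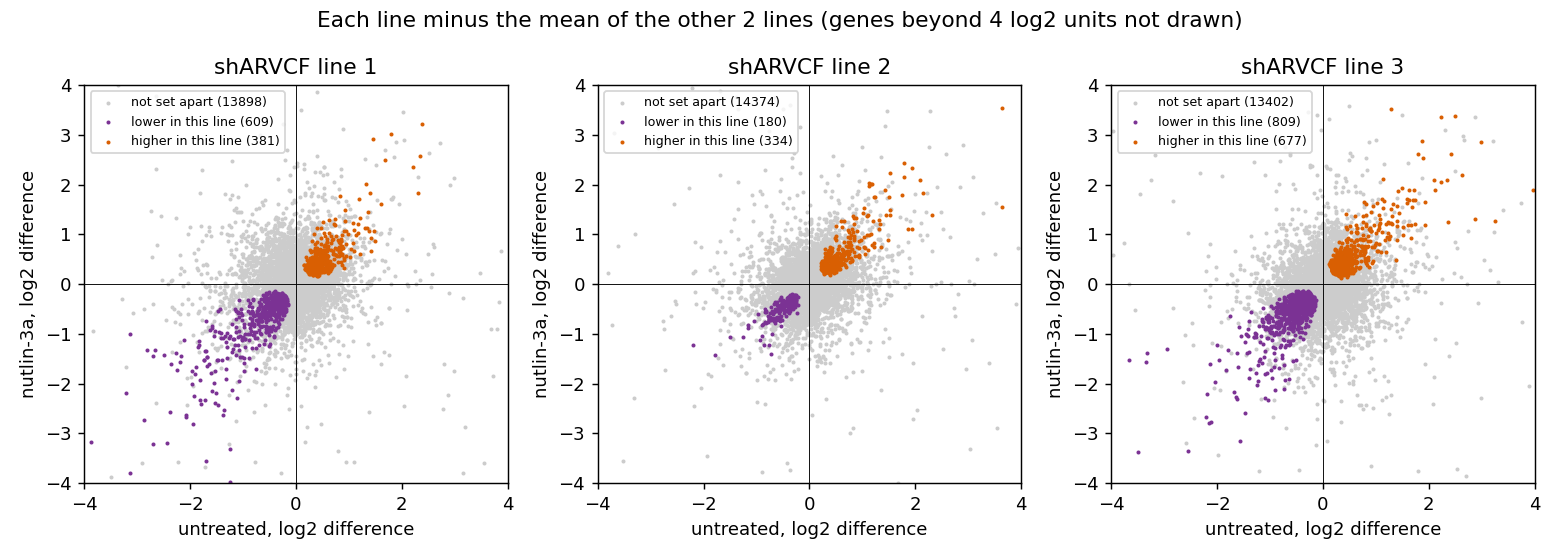
Log2 difference of each shARVCF line from the mean of the other 2 lines, untreated (x axis) against nutlin-3a (y axis), 1 point per tested gene. Genes that set the line apart are coloured, 677 higher and 809 lower in line 3, and lie in the upper right and lower left corners, since the rule asks for the same side in both treatments.

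With 1 library per line and treatment, the error of these tests is the disagreement of a line's difference between the treatments (2 residual degrees of freedom), steadied by limma with a variance trend over expression. P-values therefore measure the spread among these libraries only, and the calls lean on the trend: with neither the trend nor robust weights 5 genes set line 1 apart and 0 set line 2 or line 3 apart in limma, while 2126 and 3069 had an unadjusted p below 0.05. Leaving out 1 library moved several counts by more than 1.5 times. Line 1 had 567 genes without its untreated library, 397 without its nutlin-3a library and 568 without that of line 3. Line 2 had 304 and 299 without its own libraries, in that order, and 273 without the untreated library of line 3. Line 3 had 571 and 425 without its own, and the F-test called 989 and 905 genes without those same libraries of line 3. The predominance of higher genes in line 2 also rested on the scaling, since 334 higher against 180 lower genes became 219 against 186 with upper-quartile scaling, 245 against 195 with cyclic loess, 260 against 188 with median-of-ratios scaling, and 260 against 222 once trends with transcript length and GC content were removed. Of the 60 genes ranked by gap, 10 higher and 10 lower per line, 48 kept their call whichever 1 library was left out.

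Line 1 was set apart by more lower than higher genes (609 against 381), but the size of this excess rested on the scaling. It was 425 against 368 with upper-quartile scaling, 493 against 364 with cyclic loess and 517 against 355 with median-of-ratios scaling. Once trends with length and GC content were removed, it was 546 against 456. Genes lower in line 1 with the largest gaps included secreted proteins and interferon-induced genes. Differences are given as the log2 value of a line minus the mean of the other 2 lines. LCN2, which encodes the iron-carrier-binding protein lipocalin 2, was at 60.8 and 40.2 in line 1, against 519 and 732 in line 2 and 659 and 1007 in line 3. LCN2 differed by log2 -3.82 in line 1 (SE 0.30, adjusted p = 0.0112). MMP3, the matrix protease stromelysin-1, was at 16.98 and 148 in line 1, against 156 and 644 in line 2 and 176 and 709.7 in line 3. MMP3 differed by log2 -2.70 in line 1 (SE 0.23, adjusted p = 0.00193). For both genes the control was near line 1: LCN2 had 74.9 untreated and 95.3, 117 and 130.4 with nutlin-3a there and MMP3 had 16.4 untreated and 162, 202 and 233 with nutlin-3a. MMP9, the gelatinase, was at 571 and 626 in line 1, against 1420.0 and 1355 in line 2 and 2385 and 2213 in line 3 (log2 -1.58, SE 0.07, adjusted p = 6.32e-06), with every library of line 1 below all others. KISS1, which encodes the precursor of kisspeptin, was at 44.7 and 132 in line 1, against 148 and 397 in line 2 and 144 and 439.9 in line 3. KISS1 differed by log2 -1.67 in line 1 (SE 0.13, adjusted p = 0.000142). The long noncoding RNA UCA1 was at 16.98 and 205 in line 1, against 49.02 and 597 in line 2 and 96.9 and 1132 in line 3 (log2 -1.98, SE 0.14, adjusted p = 8.77e-05). Its value was higher with nutlin-3a in all 3 lines, and within each treatment the order was line 1, line 2, line 3. ARHGDIB was at 56.3 and 8.22 in line 1, against 212 and 33.3 in line 2 and 223 and 54.2 in line 3 (log2 -2.09, SE 0.22, adjusted p = 0.000601), and HTN1, a histatin of saliva, at 1.79 and 14.5 in line 1, against 51.6 and 131 in line 2 and 30.96 and 148 in line 3 (log2 -3.53, SE 0.30, adjusted p = 0.000188). The cancer-testis antigen MAGEA1, whose values were similar in both treatments, was at 1037 and 831 in line 1, against 2249 and 1869.6 in line 2 and 2377 and 2005 in line 3 (log2 -1.19, SE 0.06, adjusted p = 1.24e-05), and the control line, at 2303 untreated and 1749, 1853 and 2075 with nutlin-3a, was with lines 2 and 3.

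Fewer genes were distinctly higher in line 1. ITGB2, the integrin chain shared by leukocyte integrins, was at 507 and 1661 in line 1, against 209.7 and 730.3 in line 2 and 191 and 798 in line 3. ITGB2 differed by log2 1.23 in line 1 (SE 0.10, adjusted p = 0.000135). Its value was higher with nutlin-3a in every line, and the level in line 1 was at least 2.08 times that of the nearest other line in each treatment. MYCL, a MYC family transcription factor, was at 489.7 and 685 in line 1, against 243 and 399.6 in line 2 and 196 and 218 in line 3. MYCL differed by log2 1.19 in line 1 (SE 0.12, adjusted p = 0.000566). FOXS1, a forkhead transcription factor, was at 765 and 157 in line 1, against 426 and 72.4 in line 2 and 311 and 61.8 in line 3. FOXS1 differed by log2 1.14 in line 1 (SE 0.13, adjusted p = 0.000608). CACNA2D2, an auxiliary subunit of voltage-gated calcium channels, was at 319.5 and 279.6 in line 1, against 183 and 143 in line 2 and 166 and 141 in line 3. CACNA2D2 differed by log2 0.92 in line 1 (SE 0.12, adjusted p = 0.00194). FOXS1 had lower values with nutlin-3a in each line and CACNA2D2 similar ones, and line 1 was on top for both. In the control FOXS1 had 600.3 untreated and 161, 177 and 199.6 with nutlin-3a, closer to line 1 than to the others in each treatment. CACNA2D2 had 272 untreated and 41.7, 62.9 and 66.6 with nutlin-3a there, closer to line 1 untreated and below all 3 lines with nutlin-3a. The adhesion glycoprotein CD200, the proteoglycan GPC3 and the receptor GPR55 were also higher (log2 1.11, adjusted p = 0.0197; log2 1.11, adjusted p = 0.00756; log2 1.62, adjusted p = 0.0145), but each lost its call when either line 1 library was left out, with adjusted p up to 0.149, 0.0838 and 0.13. Among the genes higher in line 1, the largest ranked differences belonged to the readthrough transcripts STAG3L5P-PVRIG2P-PILRB (138 and 242 in line 1, against 0.07795 and 0.3900 in line 2 and 0.0906 and 0.0862 in line 3) and RPL17-C18orf32 (146 and 83.6 in line 1, against 43.4 and 20.2 in line 2 and 21.6 and 11.8 in line 3). They share 74.3% and 60.04% of their exonic bases with a neighbouring gene, so these estimates are uncertain.

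The genes higher in line 2 with the largest gaps included secreted proteins and cell surface receptors. CHI3L1, a secreted chitinase-like glycoprotein, was at 510.2 and 767 in line 2, against 223 and 308 in line 1 and 140.2 and 242 in line 3. CHI3L1 differed by log2 1.505 in line 2 (SE 0.11, adjusted p = 0.000109). MMP13, collagenase-3, was at 1588 and 859 in line 2, against 744 and 299 in line 1 and 624 and 218 in line 3. MMP13 differed by log2 1.48 in line 2 (SE 0.12, adjusted p = 0.00133). APOD, the lipocalin apolipoprotein D, was at 317 and 455 in line 2, against 142 and 179.8 in line 1 and 112 and 190.0 in line 3. APOD differed by log2 1.31 in line 2 (SE 0.13, adjusted p = 0.00109). For CHI3L1 and MMP13 both libraries of line 2 stood above all 4 libraries of the other lines. Of the receptors, P2RX7, an ATP-gated channel, was at 148 and 204 in line 2, against 54.5 and 52.04 in line 1 and 47.8 and 35.2 in line 3 (log2 1.87, SE 0.22, adjusted p = 0.0018). CMKLR1, the chemerin receptor, was at 379 and 135 in line 2, against 145 and 69.4 in line 1 and 161 and 56.1 in line 3. CMKLR1 differed by log2 1.21 in line 2 (SE 0.16, adjusted p = 0.0029). SLITRK6, a neuronal transmembrane protein, was at 287 and 29.6 in line 2, against 95.6 and 9.13 in line 1 and 74.8 and 6.65 in line 3 (log2 1.78, SE 0.24, adjusted p = 0.0029), with far lower values under nutlin-3a in all 3 lines. The value of DDX24, an RNA helicase, was 237 and 219 in line 2, against 7.901 and 2.29 in line 1 and 6.397 and 5.904 in line 3. The control also had it at 8.16 untreated and 3.24, 6.399 and 9.95 with nutlin-3a. Most cells use this helicase, so values this low make the estimate uncertain.

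Among genes lower in line 2, the neutrophil chemokine CXCL8 (interleukin 8) was at 35.3 and 24.98 in line 2, against 126 and 52.95 in line 1 and 123 and 89.3 in line 3 (log2 -1.61, SE 0.23, adjusted p = 0.00378). YWHAG, a 14-3-3 adaptor protein of high abundance, was at 2302 and 2248 in line 2, against 4199.6 and 3784 in line 1 and 4413 and 4188 in line 3. YWHAG differed by log2 -0.86 in line 2 (SE 0.06, adjusted p = 0.000109). YWHAG had similar values with and without nutlin-3a in each line, and line 2 lay below both others in each treatment. KCTD20 was at 2363 and 1929.7 in line 2, against 4066 and 3103 in line 1 and 3647 and 3044 in line 3. KCTD20 differed by log2 -0.69 in line 2 (SE 0.06, adjusted p = 0.000437). VPS4B, an ATPase that disassembles the ESCRT-III membrane machinery, was at 631 and 767 in line 2, against 1115 and 1195 in line 1 and 1129 and 1454 in line 3 (log2 -0.80, SE 0.08, adjusted p = 0.000775), and the methyltransferase CARNMT1 at 215 and 262 in line 2, against 389.6 and 420.0 in line 1 and 339 and 437 in line 3 (log2 -0.73, SE 0.10, adjusted p = 0.00378). In the control YWHAG had 4282 untreated and 1773, 1942 and 2142 with nutlin-3a and KCTD20 had 3887 untreated and 1642, 1686 and 1909 with nutlin-3a. For both genes the control was thus on the side of lines 1 and 3 untreated and of line 2 with nutlin-3a. VPS4B had 649 untreated and 559, 595 and 598 with nutlin-3a there, on the side of line 2 in each treatment.

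The genes lower in line 3 with the largest gaps included matrix and adhesion genes. COL3A1, the chain of type III collagen, was at 381 and 60.02 in line 3, against 1693 and 417 in line 1 and 1824 and 355 in line 2. COL3A1 differed by log2 -2.43 in line 3 (SE 0.12, adjusted p = 3.46e-05). LAMA4, a laminin chain of basement membranes, was at 362 and 109 in line 3, against 1493 and 488 in line 1 and 1851 and 532 in line 2. LAMA4 differed by log2 -2.21 in line 3 (SE 0.08, adjusted p = 7.91e-07). ITGA11, a collagen-binding integrin chain, was at 72.2 and 38.95 in line 3, against 356 and 161 in line 1 and 254 and 149.9 in line 2. ITGA11 differed by log2 -2.004 in line 3 (SE 0.15, adjusted p = 8.38e-05). Line 3 was lowest in each treatment for all of these, with gaps of more than 3-fold to the nearest other line. In the control COL3A1 had 2713 untreated and 306, 317 and 401 with nutlin-3a, on the side of lines 1 and 2 in each treatment. ITGA11 had 230.3 untreated and 63.2, 67.3 and 91.4 with nutlin-3a there, near line 2 untreated and between line 3 and the others with nutlin-3a. MFAP5, a microfibril-associated glycoprotein, was at 194 and 627 in line 3, against 1031 and 2150.2 in line 1 and 709 and 1699 in line 2. MFAP5 differed by log2 -1.87 in line 3 (SE 0.13, adjusted p = 0.000492). WNT11, a Wnt ligand of the non-canonical branch, was at 90.1 and 28.5 in line 3, against 333 and 188 in line 1 and 233 and 111 in line 2 (log2 -1.96, SE 0.18, adjusted p = 0.000244), and DYNC1I1, a dynein intermediate chain, at 124 and 38.00 in line 3, against 614 and 116 in line 1 and 382 and 105 in line 2 (log2 -1.74, SE 0.17, adjusted p = 0.000248). With nutlin-3a MFAP5 had higher values in all 3 lines and WNT11 and DYNC1I1 lower ones, and line 3 was lowest throughout. SEPP1, the selenium carrier selenoprotein P, was lower too (log2 -1.93, adjusted p = 0.000639), though 25.5% of its exonic bases overlap CCDC152.

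In the other direction, PAPPA2, a protease that cleaves insulin-like growth factor binding proteins, was at 412 and 418 in line 3, against 43.8 and 58.7 in line 1 and 60.4 and 55.5 in line 2. PAPPA2 differed by log2 2.92 in line 3 (SE 0.17, adjusted p = 2e-05). Its values were similar with and without nutlin-3a in each line, and the control had 49.3 untreated and 2.58, 6.47 and 10.03 with nutlin-3a. HMOX1, the haem-degrading enzyme induced by oxidative stress, was at 1568 and 5203 in line 3, against 756 and 2019 in line 1 and 667 and 1627 in line 2. HMOX1 differed by log2 1.33 in line 3 (SE 0.09, adjusted p = 0.000147). CSTA, the cysteine protease inhibitor cystatin A, was at 353 and 760.0 in line 3, against 78.6 and 225 in line 1 and 109 and 264 in line 2. CSTA differed by log2 1.78 in line 3 (SE 0.13, adjusted p = 5.4e-05). SYP, the synaptic vesicle protein synaptophysin, was at 209 and 681 in line 3, against 58.1 and 191 in line 1 and 82.4 and 249.8 in line 2. SYP differed by log2 1.61 in line 3 (SE 0.13, adjusted p = 0.000123). HMOX1, CSTA and SYP had higher values with nutlin-3a in each line and were highest in line 3 in both treatments. LPXN, a focal adhesion adaptor, was at 715 and 3358 in line 3, against 225 and 1321 in line 1 and 379 and 1563 in line 2. LPXN differed by log2 1.26 in line 3 (SE 0.10, adjusted p = 0.000244). OLAH, a thioesterase of fatty acid synthesis, was at 93.5 and 203 in line 3, against 15.2 and 13.8 in line 1 and 40.2 and 51.8 in line 2 (log2 2.37, SE 0.28, adjusted p = 0.000807), and the embryonic globin HBE1 at 105 and 127 in line 3, against 23.2 and 24.6 in line 1 and 50.005 and 59.2 in line 2 (log2 1.65, SE 0.21, adjusted p = 0.0014). With nutlin-3a the control line had 2626 or more of LPXN and 811 or more of SYP, above lines 1 and 2 for both genes. For SYP the control with nutlin-3a was also above the 681 of line 3. Untreated, the control had 344 of LPXN and 82.4 of SYP, below line 3. INTS3, a subunit of the Integrator complex, was listed at 119.8 and 159.6 in line 3, against 8.04 and 2.74 in line 1 and 27.5 and 6.48 in line 2, and since it is used by every cell its low values elsewhere make this estimate uncertain.

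**Figure D2:**
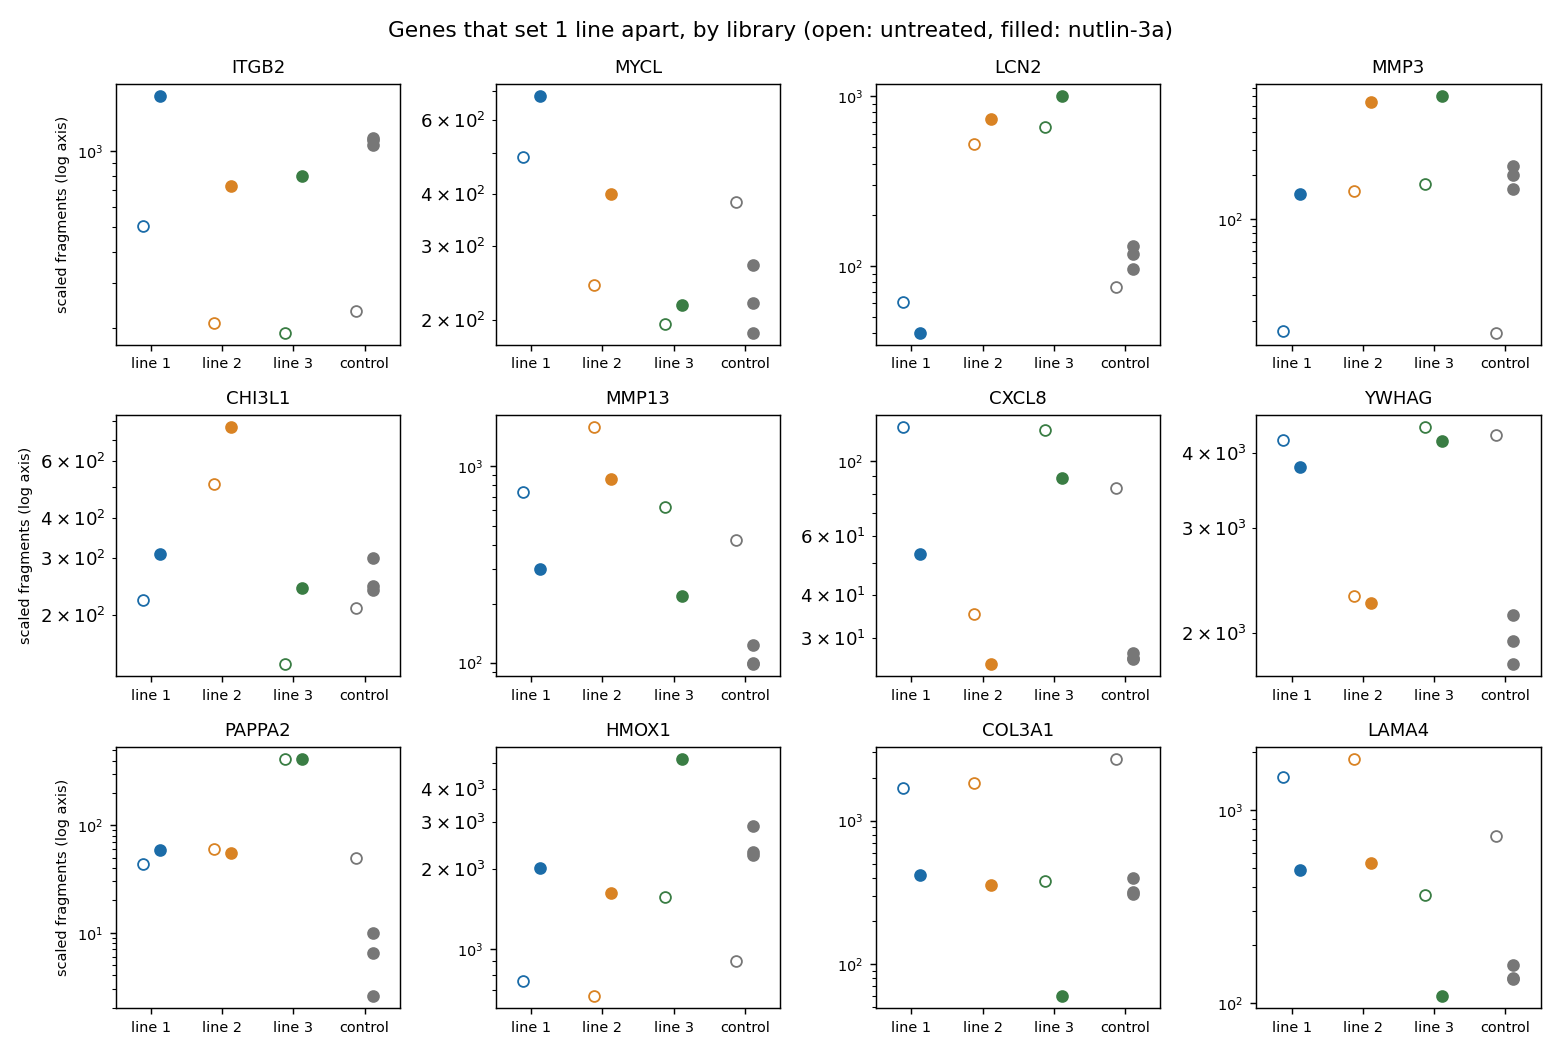
Scaled fragments (log axis) of 12 genes in the shARVCF lines and the control line, 1 point per library, open for untreated and filled for nutlin-3a. ITGB2, MYCL, LCN2 and MMP3 set line 1 apart, CHI3L1, MMP13, CXCL8 and YWHAG line 2, and PAPPA2, HMOX1, COL3A1 and LAMA4 line 3.

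Genes induced by type I interferon differed among the lines, and their median was lowest in line 1, then line 3, and highest in line 2. These genes form the antiviral programme switched on when interferon binds its receptor, and include sensors and effectors of double-stranded RNA. Of 38 tested members of the interferon list, 22 were lower in line 1 and 0 higher (57.9% lower, against 4.09% of all tested genes), with a median log2 difference of -0.60 beside -0.01 over all genes. In line 2, 18 were higher and 0 lower (47.4%, against 2.24%), with a median of 0.55. Most members higher in line 2 were also among those lower in line 1, and the contrasts share libraries, so these counts are not independent results. Line 3 had 2 higher and 1 lower (against 4.55% and 5.43% of all genes) and a median of 0.01. Without the nutlin-3a library of line 1, 13 members were lower in line 1. The median member lay -0.33 and -0.56 from the mean of the 3 lines in line 1, untreated and with nutlin-3a, 0.32 and 0.45 in line 2 and -0.07 and 0.05 in line 3. On the same scale the untreated control was at -0.22 and its 3 nutlin-3a libraries at -0.85, -0.69 and -0.65, so the control was nearer to line 1 than to line 2. In these bulk samples, fewer cells that make a transcript and less of it per cell cannot be told apart.

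OAS1, which makes the 2'-5' oligoadenylates that activate RNase L, was at 18.8 and 20.1 in line 1, 117 and 194 in line 2 and 58.6 and 91.2 in line 3. It was lower in line 1 (log2 -2.38, SE 0.22, adjusted p = 0.000219) and higher in line 2 (log2 1.96, SE 0.22, adjusted p = 0.00144). OAS2, a relative with the same activity, was at 9.83 and 13.7 in line 1, 75.5 and 115 in line 2 and 26.3 and 70.3 in line 3 and was lower in line 1. OAS2 differed by log2 -2.35 in line 1 (SE 0.28, adjusted p = 0.000993). The libraries of line 1 were the lowest of the 6 for both enzymes. IFIT1, which binds viral RNA with an unmethylated cap, was at 424 and 381 in line 1, 927 and 1210.0 in line 2 and 436 and 567 in line 3 and was higher in line 2. IFIT1 differed by log2 1.24 in line 2 (SE 0.12, adjusted p = 0.00195). IFI44 was at 391 and 718 in line 1, 1007 and 1666 in line 2 and 520.1 and 950.2 in line 3, lower in line 1 (log2 -0.85, adjusted p = 0.000188) and higher in line 2 (log2 1.08, adjusted p = 0.000109). Line 2 was the top line in each treatment for all of these. DDX58, the RNA sensor RIG-I, was at 441 and 689 in line 1, 743 and 1224 in line 2 and 653 and 1278 in line 3 and was lower in line 1. DDX58 differed by log2 -0.76 in line 1 (SE 0.09, adjusted p = 0.000692). GBP1, an interferon-induced GTPase, was at 27.7 and 10.04 in line 1, 89.2 and 53.7 in line 2 and 97.7 and 55.1 in line 3 and was lower in line 1. GBP1 differed by log2 -2.02 in line 1 (SE 0.25, adjusted p = 0.00114). For DDX58 and GBP1, lines 2 and 3 were close to each other and line 1 was well below both. GBP1 also counted as higher in line 3 by the rule, though its gap to line 2 was narrow in each treatment.

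The promoters of interferon-induced genes are known for the interferon-stimulated response element, which holds a repeat of GAAA. RefSeq promoters (GRCh38.p14, the 250 bases before the transcription start) were searched on both strands for GAAA repeated after any 2 bases. They matched 28 of the 38 members by symbol. The repeat was found in 16 of the 28 (57.1%), against 250 of 11025 promoters of tested genes (2.27%). Among the members with a promoter that were higher in line 2, it was in 6 of 12, a share no higher than over all 28. A GAAA repeat with another spacer was not counted, so a promoter without a match may still hold such a repeat. The promoters of IFIT1 (chr10:89392373-89392622, + strand), IFI44 (chr1:78649539-78649788, + strand) and OAS1 (chr12:112906712-112906961, + strand) are shown because these genes are among the named ones that were higher in line 2. Capitals mark each match. The promoter of OAS1 holds none in this window, but near its end it has gaaacgaaa, a repeat with a shorter spacer.
IFIT1: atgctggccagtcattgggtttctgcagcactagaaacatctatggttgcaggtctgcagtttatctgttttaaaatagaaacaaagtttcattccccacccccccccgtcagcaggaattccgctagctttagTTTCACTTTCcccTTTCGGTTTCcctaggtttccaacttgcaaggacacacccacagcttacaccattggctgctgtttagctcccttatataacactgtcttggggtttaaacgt
IFI44: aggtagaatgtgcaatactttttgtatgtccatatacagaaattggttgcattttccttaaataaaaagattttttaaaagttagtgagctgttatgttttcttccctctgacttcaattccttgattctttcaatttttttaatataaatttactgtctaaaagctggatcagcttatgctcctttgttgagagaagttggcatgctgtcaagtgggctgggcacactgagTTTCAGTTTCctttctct
OAS1: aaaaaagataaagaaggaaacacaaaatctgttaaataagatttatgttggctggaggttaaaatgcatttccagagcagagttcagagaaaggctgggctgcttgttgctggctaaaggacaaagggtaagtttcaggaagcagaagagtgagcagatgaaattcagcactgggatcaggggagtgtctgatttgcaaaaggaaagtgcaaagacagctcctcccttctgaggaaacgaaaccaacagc
A match describes the letters only and shows no binding.

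Many genes of the integrated stress response were higher in line 3. It is the programme in which ATF4 drives amino acid synthesis and transport and one-carbon metabolism. Of 29 tested members 14 were higher in line 3 and 0 lower (48.3%, against 4.55% of all genes), with a median of 0.36 beside 0.0042 over all genes. Line 2 had 6 lower and 0 higher (against 1.21% and 2.24% of all genes), and line 1 4 lower and 0 higher (4.09% and 2.56%). The median member lay 0.30 and 0.22 from the mean of the 3 lines in line 3, untreated and with nutlin-3a. On the same scale the untreated control was at -0.23 and its 3 nutlin-3a libraries at 0.23, 0.16 and 0.12. With nutlin-3a the control was thus nearer to line 3 than untreated. ATF4 itself was at 9532 and 9352 in line 1, 7485 and 7862 in line 2 and 13095 and 13773 in line 3, higher in line 3 (log2 0.66, adjusted p = 0.000195) and lower in line 2 (log2 -0.55, adjusted p = 0.00116). Its values were similar in both treatments, with line 3 highest and line 2 lowest in each. ALDH1L2, a mitochondrial folate enzyme, was at 364 and 175 in line 1, 219.6 and 139 in line 2 and 659 and 374 in line 3 (log2 1.24, SE 0.12, adjusted p = 0.000244 for line 3). SHMT2, the mitochondrial serine hydroxymethyltransferase, was at 2382 and 1353 in line 1, 2497 and 1648 in line 2 and 3799.9 and 2753 in line 3. SHMT2 differed by log2 0.76 in line 3 (SE 0.08, adjusted p = 0.000361). MTHFD2, the next enzyme of that folate path, was at 3092 and 1641 in line 1, 2571 and 1553 in line 2 and 4345 and 2969.7 in line 3. MTHFD2 differed by log2 0.76 in line 3 (SE 0.08, adjusted p = 0.000428). All of these enzymes had lower values with nutlin-3a in every line, and line 3 with nutlin-3a was above the treated libraries of the others. ASNS, asparagine synthetase, was at 1410.0 and 614 in line 1, 813 and 503 in line 2 and 1999 and 1167 in line 3 and was lower in line 2 (log2 -0.90, SE 0.11, adjusted p = 0.00378), as was CHAC1, which degrades glutathione, at 174 and 175 in line 1, 94.1 and 130.4 in line 2 and 259 and 308 in line 3 (log2 -0.997, SE 0.14, adjusted p = 0.00378). The count in line 3 was 8 without its untreated library and 9 without its nutlin-3a library.

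**Figure D3:**
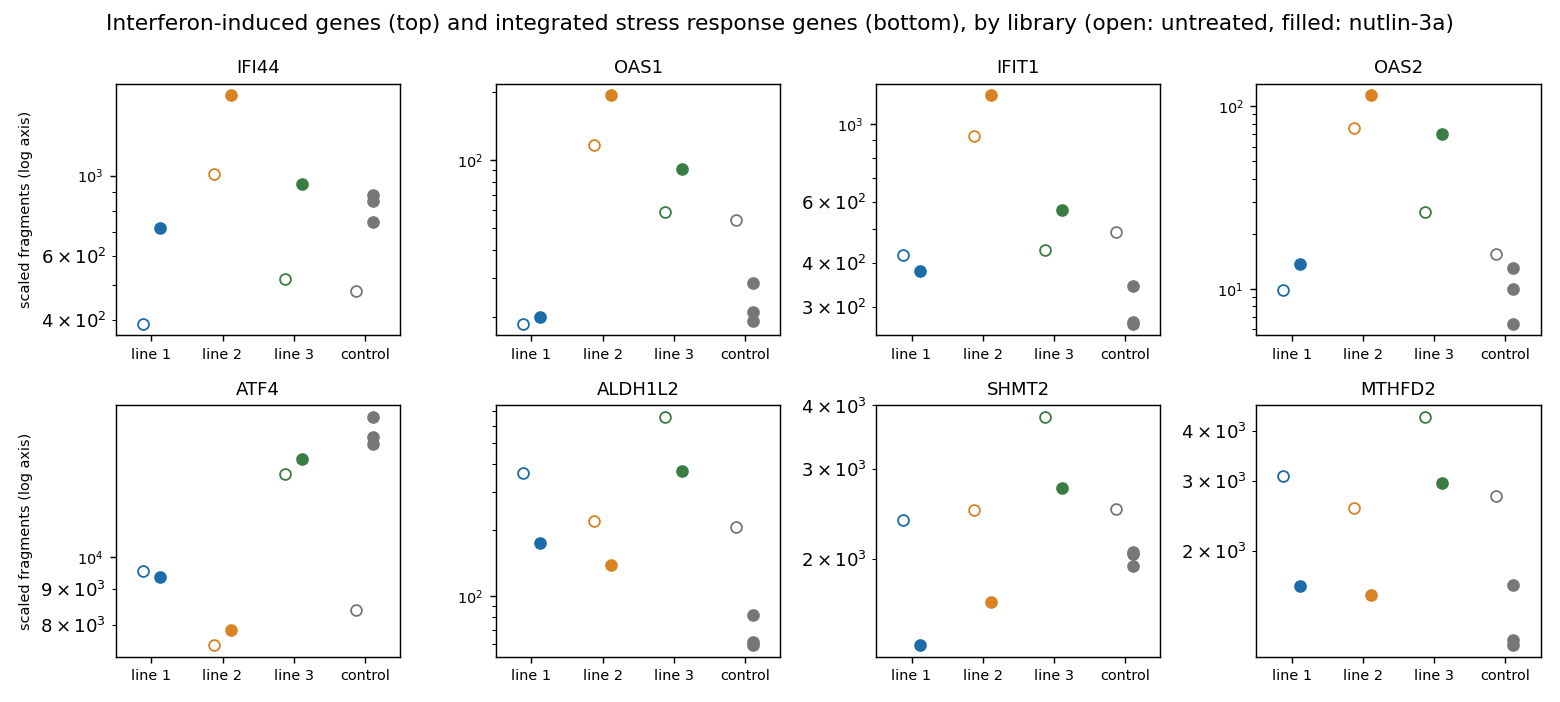
Scaled fragments (log axis) of 4 interferon-induced genes and 4 integrated stress response genes, 1 point per library, open for untreated and filled for nutlin-3a. Line 2 is highest of the 3 lines in both treatments for IFI44, OAS1, IFIT1 and OAS2, and line 3 for ATF4, ALDH1L2, SHMT2 and MTHFD2.

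Of 22 heat shock genes, which encode chaperones, 5 were higher in line 3 and 4 lower in line 1 (against 4.55% and 4.09% of all genes), with medians of 0.18 and -0.18. HSP90AB1, a constitutive cytosolic chaperone, was at 42057 and 32682 in line 1, 45691 and 37139 in line 2 and 53941 and 46230.4 in line 3, and the mitochondrial chaperone HSPD1 at 7679 and 4505 in line 1, 7793 and 4858 in line 2 and 9387 and 6101 in line 3. Line 3 was the highest in each treatment for both (log2 0.35, adjusted p = 0.0047; log2 0.33, adjusted p = 0.00702), and each call held in 5 of the 6 fits without 1 library. No heat shock gene set line 3 apart (0 of 22) once its nutlin-3a library was left out, and 2 were higher there with all 10 libraries.

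Collagens are the main fibres of the matrix. Of 33 tested chains 11 were lower and 0 higher there (33.3% lower, against 5.43% of all genes), with a median of -0.35, and 4 were lower without its nutlin-3a library and 6 with all 10 libraries in the fit. Line 2 had 6 higher and 0 lower chains (median 0.13), against 2.24% and 1.21% of all genes. The higher chains became 2 without its untreated library, 2 with all 10 libraries and 3 without the untreated library of line 3. Line 1 had 4 higher and 2 lower (2.56% and 4.09% of all genes). Besides COL3A1, the fibril chains COL5A2, at 4326 and 2916 in line 1, 5569.9 and 4059 in line 2 and 2466 and 1765 in line 3, and COL11A1, at 3574 and 3893 in line 1, 5187 and 5542 in line 2 and 2706 and 2524 in line 3, were lower in line 3 (log2 -0.98, adjusted p = 2.13e-05; log2 -0.77, adjusted p = 0.000165) and higher in line 2 (log2 0.80, adjusted p = 0.00011; log2 0.78, adjusted p = 0.000347). Line 3 had the lowest and line 2 the highest value of both chains in each treatment. COL1A1, the main chain of bone collagen, was lowest in line 3 (log2 -0.39, adjusted p = 0.0113) and highest in line 1, at 55784 and 76980.2 in line 1, against 43351 and 52319.9 in line 2 and 41166 and 43871 in line 3 (log2 0.54, SE 0.08, adjusted p = 0.00332 for line 1). Untreated, line 3 was close to line 2 for COL1A1, so its difference from the mean of the others came largely from line 1. COL8A1, a short-chain collagen, was lower in line 1, at 1052 and 305 in line 1, against 2001 and 715 in line 2 and 1755 and 768 in line 3. COL8A1 differed by log2 -1.06 in line 1 (SE 0.12, adjusted p = 0.00287).

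Of 37 other matrix genes, 9 were lower and 1 higher in line 3 (median -0.19, against 5.43% of all genes lower and 4.55% higher). In line 2 7 were higher and 1 lower (2.24% and 1.21% of all genes), and in line 1 7 and 4 (2.56% and 4.09%). LUM, the proteoglycan lumican, was at 935 and 1249 in line 3, against 1574 and 2078 in line 1 and 1655 and 1926 in line 2. LUM differed by log2 -0.73 in line 3 (SE 0.07, adjusted p = 0.000244). LOXL4, a lysyl oxidase that cross-links collagen, was at 4935 and 8105 in line 3, against 6893 and 11550.2 in line 1 and 8044 and 12368 in line 2. LOXL4 differed by log2 -0.58 in line 3 (SE 0.06, adjusted p = 0.000361). Its relative LOXL2 was instead lowest in line 1, at 2593 and 1473 in line 1, against 4141 and 2616 in line 2 and 3954 and 2350.3 in line 3 (log2 -0.70, SE 0.06, adjusted p = 0.000188). Integrins and laminins, the receptors and basement membrane ligands of cell adhesion, were mixed: of 33, 5 were higher and 7 lower in line 1, where the median was 0.05, 7 and 0 in line 2, and 4 and 8 in line 3, against 2.56% and 4.09%, 2.24% and 1.21%, and 4.55% and 5.43% of all genes. With all 10 libraries 4 were lower in line 1, 3 higher in line 2 and 4 lower in line 3. Without a library of line 2, or without a library of line 3, the count of higher members in line 2 was 3, and without the untreated library of line 3 4 were lower in line 3. ITGA2, the collagen receptor chain, was at 1367 and 4331 in line 1, 2642 and 6897 in line 2 and 2901 and 7365 in line 3, lowest in line 1. ITGA2 differed by log2 -0.87 in line 1 (SE 0.07, adjusted p = 0.000188). ITGA5, the fibronectin receptor chain, was at 2762 and 2857 in line 1, 3682 and 3809 in line 2 and 3719.8 and 4148 in line 3, again lowest in line 1. ITGA5 differed by log2 -0.45 in line 1 (SE 0.06, adjusted p = 0.00184).

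Matrix proteases and their inhibitors had 7 of 34 lower and 2 higher in line 1 (median -0.07, against 4.09% of all genes lower and 2.56% higher). In line 2 3 were higher and 0 lower (2.24% and 1.21% of all genes), and in line 3 4 and 5 (4.55% and 5.43%). The lower count of line 1 was 3 without its nutlin-3a library and 4 without that of line 3. MMP7, matrilysin, was at 73.3 and 76.7 in line 1, 158 and 127 in line 2 and 40.8 and 29.5 in line 3, highest in line 2 (log2 1.45, SE 0.20, adjusted p = 0.00332) and lowest in line 3 (log2 -1.54, SE 0.20, adjusted p = 0.0014). MMP9 had the reverse order of lines 1 and 3, lowest in line 1 and highest in line 3. MMP9 differed by log2 1.33 in line 3 (SE 0.07, adjusted p = 1.79e-05). TIMP2, a protease inhibitor, was at 8059 and 5470.0 in line 3, against 13958 and 9828 in line 1 and 13113 and 11446 in line 2. TIMP2 differed by log2 -0.85 in line 3 (SE 0.08, adjusted p = 0.000408). The proteases thus did not share an order of lines: MMP3 and MMP9 were lowest in line 1, MMP7 in line 3, and MMP13 was highest in line 2.

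Targets of p53 are given by their role, in arrest and feedback or in apoptosis. Of 40 targets that act in cell cycle arrest and feedback, 8 were lower and 0 higher in line 1 (median -0.22, against 4.09% of all genes lower and 2.56% higher), and 6 were higher and 1 lower in line 3 (median 0.15, against 4.55% higher and 5.43% lower). Most of these targets did not pass the test. The median target of arrest lay -0.19 and -0.05 from the mean of the 3 lines in line 1, untreated and with nutlin-3a, and 0.17 and 0.04 in line 3, so the gap was smaller with nutlin-3a. Of 18 targets that act in apoptosis, 6 were lower and 0 higher in line 1 (median -0.22), and 6 were higher and 1 lower in line 3 (median 0.20). These counts were sensitive to the scaling and to single libraries. For the arrest list, line 1 had 5 under each of the 3 other scalings, 3 with all 10 libraries in the fit, 3 without its untreated library, 13 without its nutlin-3a library and 5 without the untreated library of line 3, and line 3 had 2 with all 10 libraries, 15 without the nutlin-3a library of line 1 and 1 without its own untreated library. For the apoptosis list, line 1 had 2 and 3 without its own libraries and 3 without the nutlin-3a library of line 3, and line 3 had 0 and 1 without its own and 0 with all 10 libraries in limma. MDM2, the ubiquitin ligase that degrades p53 and is itself a target, was at 2051 and 21994 in line 1, 2019 and 18852 in line 2 and 2787 and 23800.0 in line 3. It differed among the lines (F-test adjusted p = 0.0238), with line 3 minus line 2 at log2 0.40 (SE 0.08, adjusted p = 0.0188). CDKN1A, the cyclin-dependent kinase inhibitor p21, was at 2636 and 28169.5 in line 1, 3283 and 27228 in line 2 and 4528 and 32933 in line 3. The value of line 3 against the others did not pass the test (log2 0.44, SE 0.11, adjusted p = 0.0714).

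PGF, the placental growth factor, was at 169.8 and 345 in line 1, 221 and 426 in line 2 and 325 and 656 in line 3. PGF differed by log2 0.76 in line 3 (SE 0.10, adjusted p = 0.00144). It was also lowest in line 1 (log2 -0.63, SE 0.10, adjusted p = 0.00453). TRIM22, an antiviral ubiquitin ligase that is induced by both p53 and interferon, was at 633 and 1914 in line 1, 1044 and 3002 in line 2 and 835 and 2364 in line 3, with the order of the interferon genes rather than that of PGF: lowest in line 1 (log2 -0.52, adjusted p = 0.00135) and highest in line 2 (log2 0.51, adjusted p = 0.00254). PMAIP1, the BH3-only protein NOXA, was at 1611 and 1983 in line 1, 2389.7 and 3191 in line 2 and 2242 and 2909.6 in line 3 and was lower in line 1. PMAIP1 differed by log2 -0.57 in line 1 (SE 0.06, adjusted p = 0.000601). For PMAIP1 line 2 was the highest line in both treatments, by a narrow gap to line 3. CASP1, the inflammatory caspase, was at 7.15 and 13.7 in line 1, 18.6 and 71.2 in line 2 and 21.2 and 97.9 in line 3 and was lower in line 1 (log2 -1.94, SE 0.34, adjusted p = 0.00788) and higher in line 3 (log2 1.21, SE 0.34, adjusted p = 0.047). Lines 2 and 3 were nearer to each other than to line 1 for CASP1, so the line 3 difference came largely from line 1. The call in line 1 held in 4 of the 6 fits that left out 1 library.

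Of several other lists, some members set line 3 apart, beside 4.55% of all genes higher and 5.43% lower there. NF-kB targets and secreted inflammatory genes had 6 of 23 higher and 0 lower in line 3 (2 without its nutlin-3a library), among them BIRC3, an inhibitor of apoptosis that restrains non-canonical NF-kB, at 439 and 1879.8 in line 3, against 286 and 1236 in line 1 and 236 and 1256 in line 2 (log2 0.67, SE 0.09, adjusted p = 0.00151). The cytokine IL32 was at 433 and 547 in line 1, 255 and 353 in line 2 and 521 and 956 in line 3, highest in line 3 (log2 0.88, SE 0.11, adjusted p = 0.00184) and lowest in line 2 (log2 -0.96, SE 0.11, adjusted p = 0.00254). CSF1, the macrophage growth factor, was instead lowest in line 1, at 384 and 2103 in line 1, 650.1 and 3059 in line 2 and 613 and 3009 in line 3. CSF1 differed by log2 -0.62 in line 1 (SE 0.07, adjusted p = 0.000828). Cancer-testis antigens had 6 of 30 higher in line 3 (3 without its untreated library, 1 without its nutlin-3a library and 3 without that of line 2). Keratins and epithelial markers had 4 of 13 higher and 1 lower in line 3. KRT18, a keratin of simple epithelia, was at 4209 and 4204 in line 1, 4841 and 5446 in line 2 and 6549 and 7742 in line 3 (log2 0.62, SE 0.07, adjusted p = 0.000473), and its partner KRT8 at 4712 and 4596 in line 1, 4531 and 4539.6 in line 2 and 6194 and 6259 in line 3 (log2 0.44, SE 0.06, adjusted p = 0.00144). Both were highest in line 3, while the control with nutlin-3a had 13822 or more of KRT18, and 4809 untreated. Growth factors and their receptors had 7 of 45 lower in line 3 (4 without its nutlin-3a library or with all 10 libraries), against 5.43% of all genes. GAS6, the ligand of TAM receptor kinases, was at 3290.0 and 2877 in line 1, 3608 and 3024 in line 2 and 2197 and 1857 in line 3. GAS6 differed by log2 -0.66 in line 3 (SE 0.06, adjusted p = 0.000209). EREG, an EGF receptor ligand, was at 202 and 351 in line 1, 353 and 442 in line 2 and 133 and 215 in line 3. EREG differed by log2 -0.94 in line 3 (SE 0.13, adjusted p = 0.00166). For both ligands line 3 was the lowest line in both treatments. The orphan receptor kinase ROR1 was at 2751 and 1018 in line 1, 2324 and 619.8 in line 2 and 1308 and 443 in line 3, lowest in line 3 (log2 -0.90, SE 0.10, adjusted p = 0.00107) and highest in line 1 (log2 0.81, SE 0.10, adjusted p = 0.00195).

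Clustered protocadherins, adhesion molecules encoded in tandem arrays of variable exons, had 9 of 49 lower and 0 higher in line 3, against 5.43% of all genes lower (1 without its untreated library and 4 with all 10 libraries). PCDHB5 was at 2479 and 1692 in line 1, 2099 and 1556 in line 2 and 1683 and 1162 in line 3 (log2 -0.46, SE 0.06, adjusted p = 0.00185) and PCDHB10 at 266 and 332 in line 1, 287 and 364 in line 2 and 153 and 220.4 in line 3 (log2 -0.75, SE 0.11, adjusted p = 0.00278, a call that held in 5 of the 6 fits without 1 library). Line 3 was lowest in both treatments for each. Members of these arrays are close in sequence, so fragments may be split between them. In the list of catenins related to ARVCF, 1 gene of 11 set line 3 apart and 1 set line 1 apart, beside 5.43% of all genes lower in line 3 and 2.56% higher in line 1. They were CTNND1 (p120), lower in line 3 at 6617 and 5541 in line 1, 6381 and 5616 in line 2 and 5379.5 and 4579.8 in line 3 (log2 -0.28, SE 0.06, adjusted p = 0.0131), and PKP2, a plakophilin of desmosomes, higher in line 1 at 995 and 1447 in line 1, 743 and 1293 in line 2 and 769 and 997 in line 3 (log2 0.37, SE 0.09, adjusted p = 0.0344). Neither call held in every fit without 1 library: CTNND1 kept it in 3 of 6 and PKP2 in 2. Neural and neuroendocrine genes had 9 of 42 lower and 2 higher in line 1, against 4.09% and 2.56% of all genes (3 lower without its nutlin-3a library and 5 with all 10 libraries). SLIT3, a guidance ligand, was at 262 and 389.8 in line 1, 501 and 749 in line 2 and 353 and 566 in line 3, lowest in line 1 (log2 -0.71, SE 0.09, adjusted p = 0.00134) and highest in line 2 (log2 0.70, SE 0.09, adjusted p = 0.00254). NRP1, a co-receptor for semaphorins and VEGF, was at 3442 and 1847 in line 1, 5073 and 3823 in line 2 and 4573 and 3134 in line 3 and was lower in line 1. NRP1 differed by log2 -0.70 in line 1 (SE 0.10, adjusted p = 0.00947). None of 47 DNA replication genes set any line apart in limma. Of 60 cytosolic ribosomal proteins 3 were lower in line 2 and 1 higher in line 3, against 1.21% and 4.55% of all genes.

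**Figure D4:**
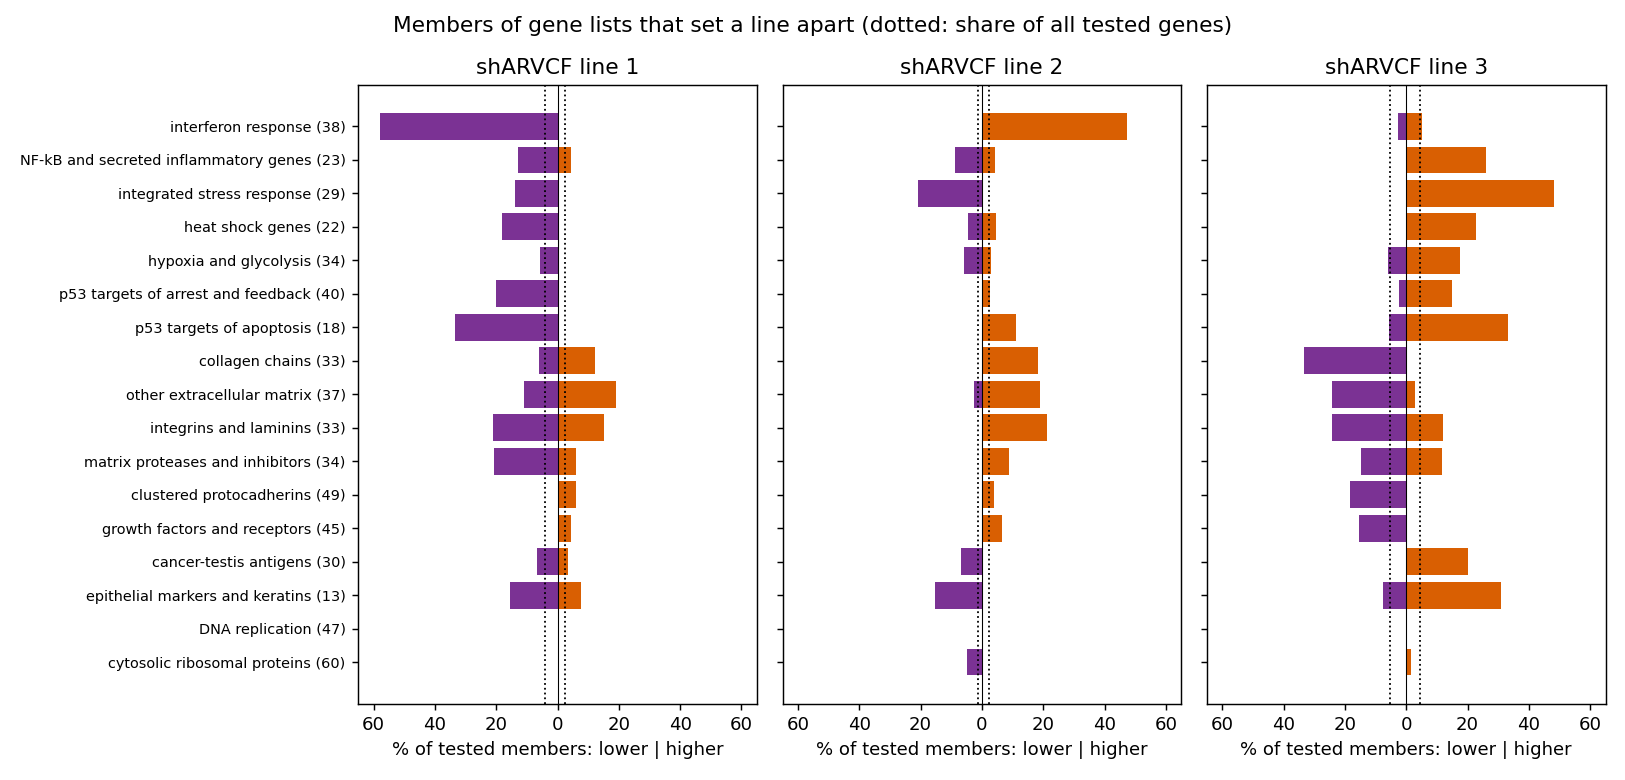
Percentage of the tested members of 17 gene lists that set each shARVCF line apart, lower to the left and higher to the right, with the number tested in brackets and dotted lines at the percentage over all tested genes. Interferon genes extend to 57.9% lower in line 1 and 47.4% higher in line 2, and the integrated stress response to 48.3% higher in line 3.

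The response to nutlin-3a was alike in outline in the 3 lines. With 1 library per line and treatment it was not tested. Across 12390 genes, the log2 response had a Pearson correlation of 0.917 between lines 1 and 2, 0.895 between lines 1 and 3 and 0.927 between lines 2 and 3, a description across genes, which are not independent replicates. Arrest and feedback targets had a median response of 2.19 (log2) in line 1, 2.04 in line 2 and 1.85 in line 3. That of mitosis genes was -5.18, -5.23 and -4.45, and that of DNA replication genes -3.39, -3.06 and -2.84. The median of p53 targets of apoptosis was 0.82, 0.92 and 1.001, and that of interferon genes -0.00077, 0.22 and 0.23. Line 3 thus had the smallest median response for arrest targets, mitosis and DNA replication and the largest for apoptosis targets and interferon genes. Whether the lines differ in these was not tested.

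Positions on chromosomes were examined for neighbouring genes that shifted together in both treatments, as genes in a gained or lost segment can. Medians per chromosome ran from -0.07 to 0.07 (log2) over the 3 lines and both treatments. No run of 50 neighbouring genes had a median of 0.3 or more in size, of the same sign in both treatments, among 11172 runs per line. Runs were ranked by the smaller of their 2 medians, untreated and with nutlin-3a. By that measure the run furthest from 0 in line 3 lay on chromosome 21 (-0.13 untreated and -0.13 with nutlin-3a), where the medians of the whole chromosome were -0.06 and -0.07 in line 3, 0.05 and 0.04 in line 1 and -0.0046 and 0.02 in line 2. By the same measure the highest and lowest runs in line 1 were on chromosome 19 (0.14 and 0.11) and chromosome 9 (-0.12 and -0.17).

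**Figure D5:**
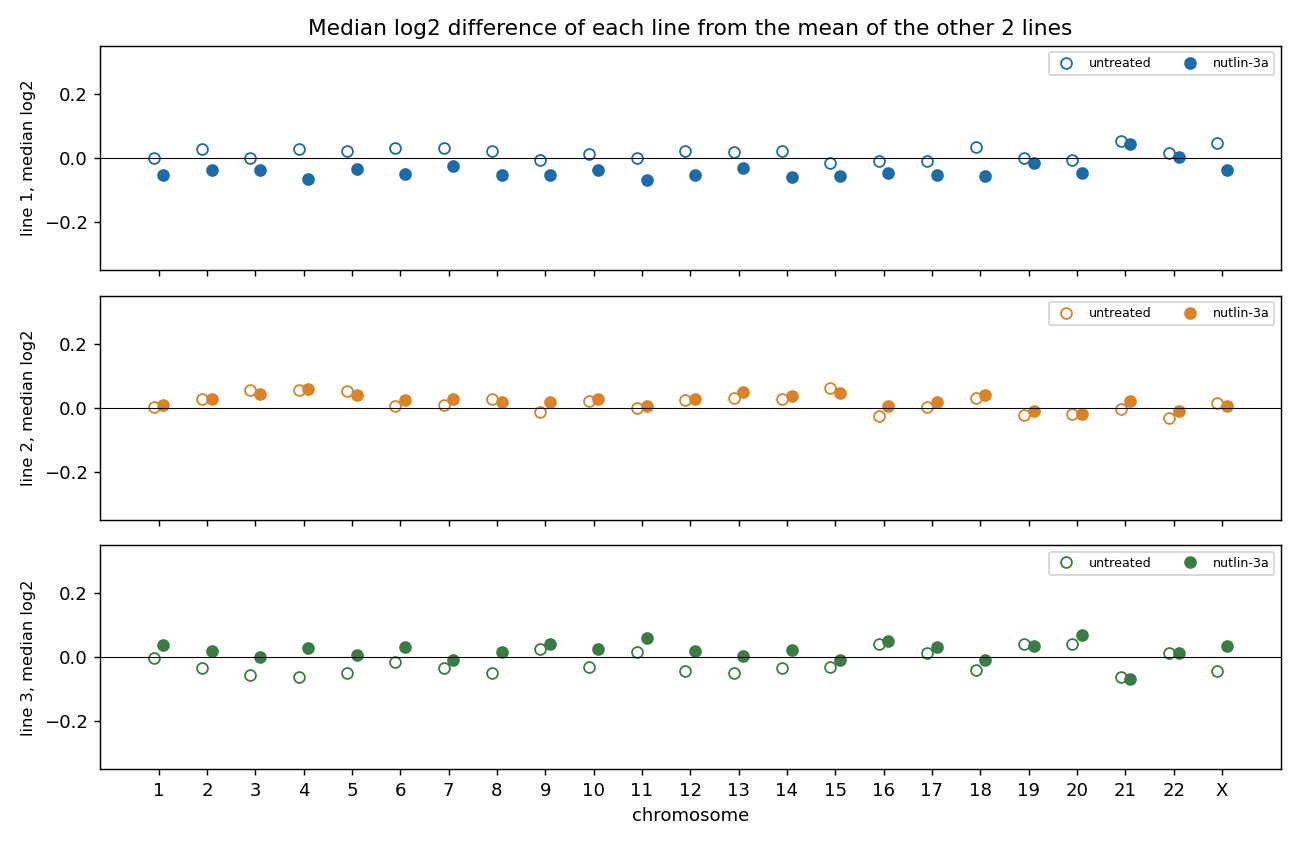
Median log2 difference of each shARVCF line from the mean of the other 2 lines per chromosome, open circles untreated and filled circles nutlin-3a. All medians lie between -0.07 and 0.07, and in line 1 most chromosomes are slightly above 0 untreated and slightly below 0 with nutlin-3a.

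The control line was set beside the genes that set a line apart. Without treatment, the control lay nearer to the mean of the other 2 lines than to the line set apart for 43.0% of the genes higher in line 1 and 57.6% of those lower, for 66.8% and 78.3% in line 2, and for 64.0% and 75.8% in line 3. With nutlin-3a the percentages were 71.9% and 56.7% in line 1, 70.1% and 55.6% in line 2 and 39.6% and 35.6% in line 3. Untreated, the control was thus on the side of the other 2 lines for most genes that set line 2 or line 3 apart, whereas for genes higher in line 1 it was more often on the side of line 1. The genes were chosen because 1 line was the extreme of the 3, so a control nearer to the other 2 is partly built in. With nutlin-3a the control lay beyond line 3 itself for 328 of 677 higher and 431 of 809 lower genes. The same counts were 69 of 381 and 194 of 609 for line 1, and 67 of 334 and 59 of 180 for line 2. All of these are counts without a test, since the control is also 1 line, and differences between the control and the knockdown in the response to nutlin-3a enter the treated values.

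Genes set apart were more abundant than the average tested gene, with median means from 781 to 1048 scaled fragments in the 6 sets, against 458 over all genes. Genes lower in line 3 and genes higher in line 1 had longer transcripts (median 4347 and 4328 bases, against 3366 over all genes). Genes higher in line 3 had shorter ones (median 2953 bases), and a higher GC content was found in genes higher in line 3 and lower in line 2 (median 52.97% and 52.3%, against 48.7%). Over all genes the deviation of line 3 followed length with Spearman correlations of -0.11 untreated and -0.19 with nutlin-3a, and GC content with 0.25 and 0.06. Line 3 was set apart by 747 higher and 771 lower genes when trends with length and GC content were removed from each library. Of the collagen chains 11 were lower in line 3 and of the integrated stress response genes 15 were higher in that fit. Lines 1 and 2 were set apart by 1002 and 482 genes in that fit, and 22 interferon genes were lower in line 1 and 17 higher in line 2. Of 371 differences of named genes 353 had the same call.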

How the data were processed

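Poly(A)-selected RNA of the 10 libraries was sequenced with a stranded kit, per the labels' protocols. The submitters' processing notes name bcl2fastq 1.8.3, HISAT2 2.1.0, Cuffnorm 2.2.1 and the build hg38, with no role or annotation given. The authors deposited 1 table of signal values per gene symbol, fragments scaled across libraries and not whole counts, so no count model was used and read depth is unknown. Of 26040 symbols, 24016 matched GENCODE 29 by name and 699 by an older name.

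Values were taken as log2(value + 1) and fitted with limma 3.58.1 in R 4.3.3 (treatment + line, eBayes with trend and robust weights), with Benjamini-Hochberg adjustment over the 14888 genes that reached 10 in 2 of the 6 libraries. Fold differences are on that scale and understate those of low genes. On simulated data for line 1 (14696 genes), 52 of 100 genes changed by 0.5 and 95 of 100 changed by 1 (log2) were recovered, with 7 false calls. The simulated variances were drawn from the variance trend that limma had fitted, with independent noise. The 7 false calls therefore do not measure how many calls are false in the real data. The genes with the 10 largest gaps per line and direction and a mean of at least 50, and up to 4 members per list that set a line apart, were named, beside ARVCF, MDM2 and CDKN1A, and a few results are not reported here. The members and lists were chosen with earlier results of these data known. No label says that libraries came from separate cultures.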

Additional observations from a re-analysis of the deposited data

Results flagged for a closer look

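Among the genes reported here, 16 with a mean of at least 50 had opposite responses: the value was at least 2-fold higher with nutlin-3a in 1 shARVCF line and at least 2-fold lower in another. With 1 library per line and treatment the difference was not tested. The largest spans between the lines (highest minus lowest log2 response) were 14.26 for the noncoding FLJ20021, 13.22 for the phospholipase PLA2G4B and 10.54 for the splicing factor U2AF1. U2AF1 was at 805 and 10.04 in line 1, 482 and 857 in line 2 and 39.1 and 817 in line 3, untreated and with nutlin-3a. U2AF1, NOMO1, POLR2J3 and RASA4B have near-identical copies elsewhere in the genome, and PLA2G4B shares 75.6% of its exonic bases with JMJD7-PLA2G4B, so their estimates are uncertain. The remaining spans were 9.02 for TTYH1, 8.40 for VAMP7, 8.14 for C14orf132, 7.49 for CUTA, 6.95 for NOMO1, 5.18 for RN7SL2, 5.13 for RASA4B, 4.65 for HLA-C, 4.07 for RNA45S5, 3.77 for LOC101927151, 3.56 for LOC148413, 3.47 for ACACA and 2.68 for POLR2J3. Some of these spans rest on values near 0. With nutlin-3a, line 1 had 0.91 of TTYH1, 1.83 of VAMP7 and 6.39 of CUTA, so their estimates are uncertain too. None of the genes with opposite responses is used as a trait of a line in the report.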

How the results depend on the processing

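The counts of genes called among the lines and set apart in lines 1, 2 and 3 were within 1.5 times of 1874, 990, 514 and 1486 with a pseudocount of 0.1 or 10, a filter at 50, upper-quartile, median-of-ratios or cyclic loess scaling, removal of length and GC trends, and, added after seeing the data, a variance trend without robust weights. No called difference of a named gene reversed its sign in any fit. The excess of lower over higher genes in line 3 did not hold without the untreated library of line 1. Without a filter on low values there were 453 genes in the F-test and 255, 83 and 514 set apart in lines 1, 2 and 3. With all 10 libraries in the fit, 650 genes in the F-test and 360, 179 and 588 set apart in lines 1, 2 and 3. With neither trend nor robust weights, 1 gene in the F-test and 5, 0 and 0 set apart in lines 1, 2 and 3 in limma, and 2126 and 3069 genes at an unadjusted p under 0.05 in lines 2 and 3. Without the treatment block, 0 genes in the F-test and 0, 0 and 0 set apart in lines 1, 2 and 3, and 336, 379, 243 and 427 at an unadjusted p under 0.05, since the treatment response then enters the error. Tested against a minimum difference of 0.5 (log2), 37, 8 and 36 genes set lines 1, 2 and 3 apart. Leaving out 1 library gave 905 to 1863 genes in the F-test, 397 to 935 for line 1, 273 to 659 for line 2 and 425 to 1514 for line 3, where a line left with 1 library is assumed to vary like the others. For the other drops in count the cause was not tested. Of 371 differences of named genes, 184 lost their call without the filter, 152 with all libraries, 358 with neither trend nor weights and 70 to 134 without 1 library. No paired analysis was possible because the libraries of different lines share no replicate numbers in the labels; treatment was the block in the reported fit.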
